A study of Mus musculus with 36 samples.

Results

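Oxidative phosphorylation is carried out in the inner mitochondrial membrane by 5 protein complexes. Complex I takes electrons from NADH and complex II takes them from succinate. Complex III passes them to cytochrome c and complex IV passes them on to oxygen. Complex V, ATP synthase, makes ATP with the proton gradient that complexes I, III and IV build. The kidney depends on this pathway because its tubules, above all the proximal tubule, spend much ATP on salt transport and fill their cells with mitochondria.

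The genes described here encode nuclear subunits of these complexes. They were taken by gene symbol, with prefixes for each complex, and had to have a mean of at least 1 FPKM over all libraries. FPKM scales the sequenced fragments of a gene by its length and by the size of the library, so levels of different genes can be set side by side. Of 82 matching symbols 81 were kept, out of 11144 genes tested. They were 37 of complex I, 4 of complex II, 8 of complex III, 15 of complex IV and 17 of complex V. The rows nearest the limit were Cox4i2 at 1.29 FPKM and Cox6a2 at 3.05 FPKM inside it and Cox7b2 at 0.03 FPKM outside it. The prefixes also took in genes whose products are not plain structural subunits: Ndufa4, now placed with complex IV, Cox7a2l, which binds respiratory chain complexes to each other, Atp5s, a coupling factor of ATP synthase, and Atp5sl, now named Dmac2. They missed Ndufab1, Cyc1 and Usmg5, nuclear subunits of complexes I, III and V, which were counted in the lists of other genes below. The subunits encoded by mitochondrial DNA were not analysed here.

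Kidneys came from wild-type male C57BL/6J mice fed a high-fat diet or normal chow, both ad libitum, from 6 weeks of age, with 16 weeks given for the harvest. Light and dark each lasted 12 h, and zeitgeber time (ZT) is the number of hours since the lights came on. Kidney RNA was sequenced at ZT0, 4, 8, 12, 16 and 20, with 3 replicates for each diet and time, which gives 18 high-fat and 18 normal chow libraries. The study asks how the diet changes the daily cycles of the kidney.

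Depth, estimated from the steps between low values, spanned 0.337 to 1.42 relative units in high-fat libraries and 0.404 to 1.45 in normal chow libraries. Markers of the proximal tubule were high throughout, with summed levels of 3072 to 3625 FPKM under the high-fat diet and 2775 to 3901 FPKM under normal chow. The sums hide single genes: 3 of the 8 markers were lower in high-fat than in normal chow kidneys and 1 was higher. The log2 differences of these 8 had a median of -0.12. Neighbouring tissue was present in some libraries. Summed adrenal cortex markers stayed at or under 1.27 FPKM in high-fat libraries and reached 3378 FPKM under normal chow, where they were high in ZT0 replicate 5, ZT4 replicates 2 and 3 and ZT16 replicate 4. The 9 adipocyte markers summed to 89.3 to 831 FPKM under the high-fat diet and to 211 to 2982 FPKM under normal chow, and 8 were lower and 1 was higher under the high-fat diet. The trend of each library's values over transcript GC content, called its GC slope here, ran from -0.27 to 0.27 log2 per 10 points of GC under the high-fat diet and from -0.39 to 0.45 under normal chow.

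Subunit transcripts were among the abundant RNAs of the kidney. The 81 genes took 8.17% to 9.34% of the summed FPKM in high-fat libraries (median 8.86%) and 8.08% to 9.63% in normal chow libraries (median 8.72%). Their median level was 462 FPKM, and 72 of them reached 100 FPKM. The highest of each complex were Ndufa4 at 1932 FPKM, Sdhb, an iron-sulfur subunit of complex II, at 567 FPKM, Uqcr10, a small subunit of complex III, at 1604 FPKM, Cox4i1, the common form of subunit 4 of complex IV, at 2181 FPKM, and Atp5k, the e subunit of ATP synthase, at 2369 FPKM. The lowest were Ndufa4l2 at 7.26 FPKM, Sdha at 222 FPKM, Uqcrc2, a core protein of complex III, at 211 FPKM, Cox4i2 at 1.29 FPKM and Atp5s at 7.21 FPKM. Complex II was the most even, with its 4 members within 2.55-fold of each other, while members of complex III lay within 7.59-fold.

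**Figure D1:**
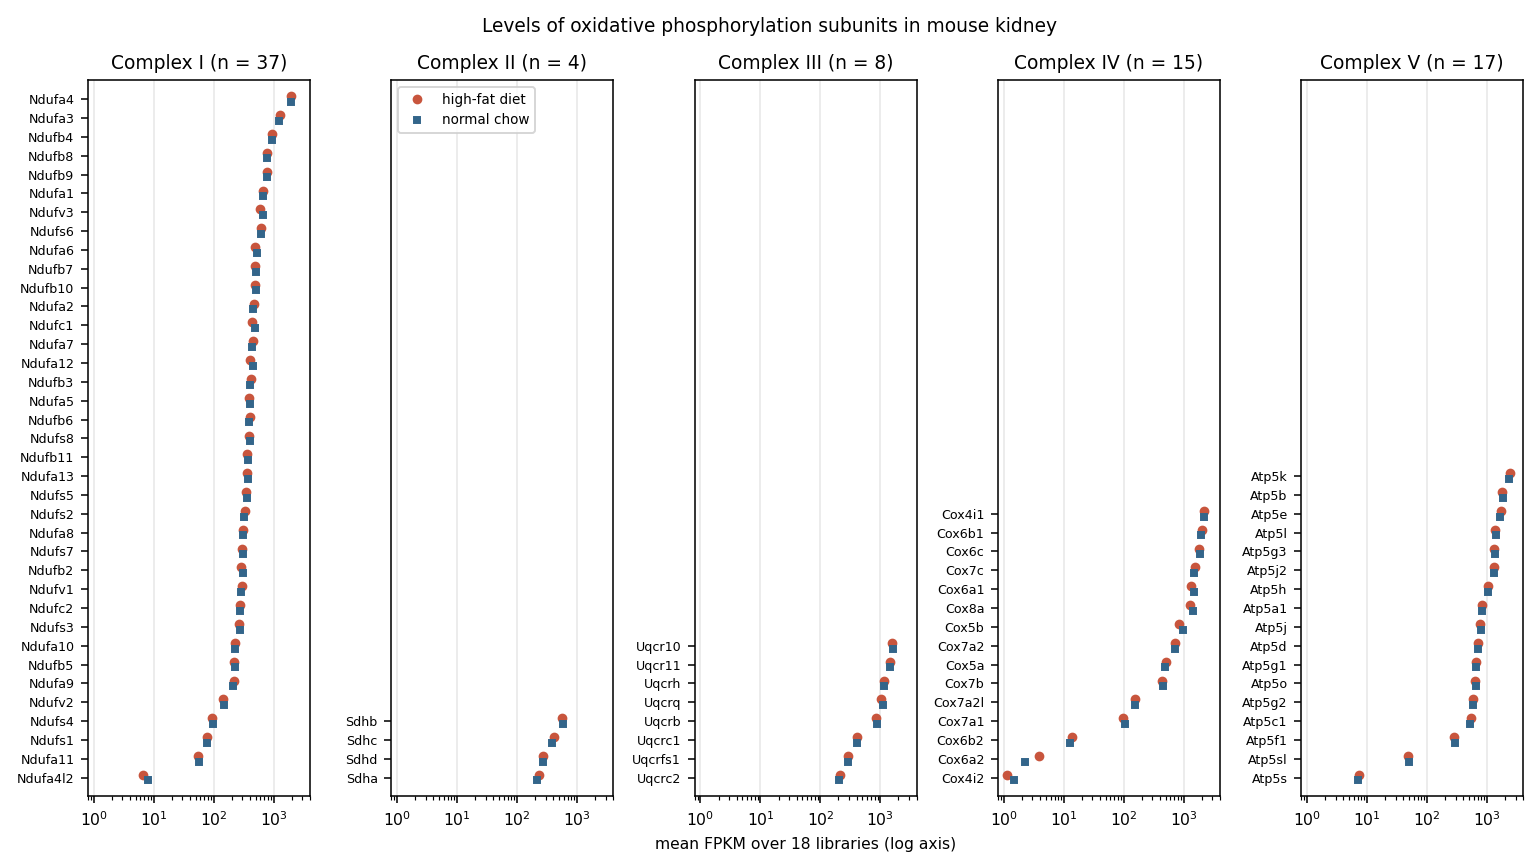
Mean FPKM of the 81 subunit genes by complex on a log axis, with circles for 18 high-fat libraries and squares for 18 normal chow libraries. Most pairs of symbols coincide, 72 genes reach 100 FPKM, and Cox6a2 is the gene whose symbols stand furthest apart.

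The low members of several complexes are tissue-specific relatives of a high one. Cox6a2, the heart and muscle form of subunit 6a, made 0.287% ± 0.0654 of the summed FPKM of Cox6a1 and Cox6a2 under the high-fat diet and 0.147% ± 0.0608 under normal chow (SD, n = 18 each). Cox4i2, a form of subunit 4 known from lung and low oxygen, made 0.0524% ± 0.0183 and 0.0664% ± 0.0314 of its pair with Cox4i1 under the high-fat diet and normal chow. Cox6b2, the testis form of subunit 6b, made 0.695% ± 0.116 of its pair under the high-fat diet and 0.659% ± 0.121 under normal chow. Ndufa4l2, a relative of Ndufa4 that low oxygen induces, made 0.346% ± 0.0642 under the high-fat diet and 0.407% ± 0.185 under normal chow.

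Cox7a1, the heart, muscle and brown fat form of subunit 7a, was the exception, at 12.0% ± 2.08 of its pair with Cox7a2 under the high-fat diet and 12.9% ± 3.43 under normal chow. The c subunit of ATP synthase, which forms its rotating ring, is encoded by 3 genes whose mature protein is the same. Of their summed FPKM Atp5g3 held 51.0% ± 2.96, Atp5g1 25.9% ± 1.72 and Atp5g2 23.0% ± 1.54 under the high-fat diet, and 52.5% ± 3.77, 25.0% ± 2.33 and 22.5% ± 1.73 under normal chow. Apart from Cox6a2, these shares differed between the diets by less than 1 SD of either diet.

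Averaged over the day, the subunits differed little between the diets. Of 81 genes 3 were higher and 3 lower under the high-fat diet (limma on log2(FPKM + 0.5), Benjamini-Hochberg adjusted over all genes tested, threshold 0.05), which is 7.41% of the members against 16.6% of all genes tested. For all genes the share was 5.25% higher and 11.4% lower. At an unadjusted p under 0.05 there were 12 members, against 30% of all genes. The members' log2 differences had a median of -0.02, with 32 above and 49 below 0, and the median of all genes was -0.03. The 95% interval of the difference lay within 0.32 log2 either way for 77 members (95.1%), against 79.5% of all genes, and the exceptions were Cox6a2, Cox5b, Cox4i2 and Ndufa4l2. Because RNA of the tissue was measured, fewer cells of a type and less RNA per cell cannot be told apart in any of these differences.

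**Figure D2:**
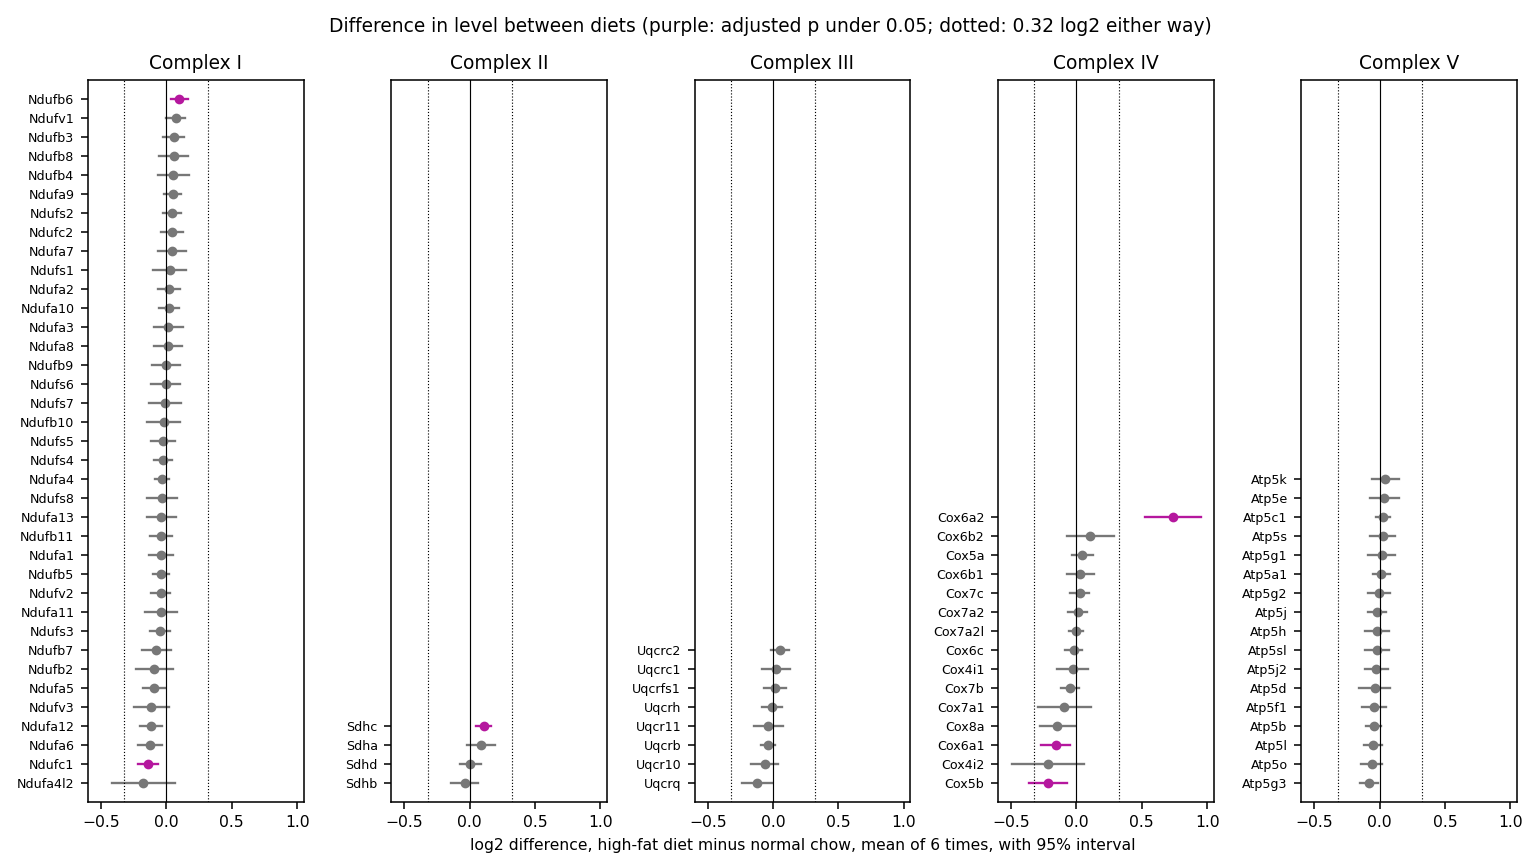
Log2 difference in level (high-fat diet minus normal chow, mean of 6 times) of every member with its 95% interval, by complex; purple marks adjusted p under 0.05 and the dotted lines mark 0.32 log2 either way. Of 81 genes 6 are purple, and Cox6a2 at 0.74 is the one that lies wholly outside the dotted lines.

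Complex IV held the widest differences. Cox6a2 rose under the high-fat diet, to 3.87 ± 1.21 FPKM against 2.23 ± 1.21 FPKM under normal chow (SD, n = 18 each; log2 difference 0.74 ± 0.10 SE, adjusted p = 8.86e-06 by limma). The ubiquitous form Cox6a1 fell, to 1330 ± 184 FPKM under the high-fat diet against 1493 ± 275 FPKM under normal chow (-0.16 ± 0.05, adjusted p = 0.0465). Cox5b, a zinc-binding subunit, fell to 839 ± 120 FPKM under the high-fat diet against 984 ± 196 FPKM under normal chow (-0.22 ± 0.07, adjusted p = 0.0315). The ranges of both diets overlapped for all 3 genes. Cox6a1 had a lowest, median and highest value of 963, 1318 and 1809 FPKM under the high-fat diet and 1155, 1439 and 2292 FPKM under normal chow. Cox5b had 548, 842 and 1160 FPKM under the high-fat diet and 755, 938 and 1415 FPKM under normal chow. The log2 difference of Cox6a1 was below 0 at 5 of 6 times, as was that of Cox5b, and both were above 0 at ZT16, at 0.08 ± 0.13 and 0.07 ± 0.17 (SE). Cox8a, the common form of subunit 8, had a difference of -0.15 ± 0.07 that missed the threshold (adjusted p = 0.134), and the other nuclear members of complex IV did as well.

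The Cox6a2 gene lies on chromosome 7 from 128205435 to 128206387 on the minus strand of GRCm38. In the high-fat libraries it stood at 2.22, 3.22 and 4.46 FPKM at ZT0 and at 5.00, 5.23 and 7.05 FPKM at ZT4, against 2.44, 3.04 and 3.51 FPKM and 2.49, 3.01 and 5.99 FPKM in normal chow libraries. At both times the diets overlapped. At ZT8 it had 3.13, 3.16 and 3.43 FPKM in high-fat libraries, against 1.15, 1.17 and 1.33 FPKM in normal chow libraries (log2 difference 1.13 ± 0.25, adjusted p = 0.0426 by limma). At ZT12 it had 4.09, 4.37 and 4.52 FPKM in high-fat libraries, against 0.862, 1.67 and 1.94 FPKM in normal chow libraries (1.32 ± 0.25, adjusted p = 0.0122). At ZT16 the values were 1.74, 2.97 and 3.49 FPKM in high-fat libraries and 1.41, 2.46 and 3.01 FPKM in normal chow libraries, which overlap. At ZT20 they were 3.41, 3.89 and 4.36 FPKM in high-fat libraries and 1.49, 1.61 and 1.67 FPKM in normal chow libraries, which do not overlap, although the difference of 1.06 ± 0.25 missed the threshold (adjusted p = 0.0836). So the groups were apart at ZT8, ZT12 and ZT20 and mixed at ZT0, ZT4 and ZT16.

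With time as a factor, the difference between the diets in the time course of Cox6a2 did not pass limma's F test (unadjusted p = 0.00695, adjusted p = 0.999). That test called 2 of all 11144 genes, so a like time course under both diets is not shown. Cox6a2 overlaps Itgad, an integrin gene on the opposite strand, and the library kit named in the labels does not mark strand. Itgad had a mean of 0.0220 FPKM. The nearest tested neighbours, 9130023H24Rik, Armc5 and Tgfb1i1, differed by -0.04 ± 0.06, 0.00 ± 0.05 and -0.11 ± 0.08 (adjusted p = 0.722, 0.986 and 0.366). Skeletal muscle markers summed to 1.26 to 2.75 FPKM in high-fat libraries and 1.23 to 3.60 FPKM in normal chow libraries, Ckm was at most 0.0856 FPKM in high-fat and 0.0397 FPKM in normal chow libraries, and Myh4 was at 0 in all 36. With the adipocyte score as a covariate the difference of Cox6a2 was 0.70 (adjusted p = 0.00165). Leaving out any of the 36 libraries gave an adjusted p of at most 2.46e-05. The difference at ZT8 missed the threshold in 21 of 36 such fits (adjusted p 0.0504 to 0.191): without high-fat ZT0 replicate 4, ZT4 replicate 3 or 4, any replicate of ZT8 or ZT12, ZT16 replicate 3 or any replicate of ZT20, or normal chow ZT0 replicate 4, any replicate of ZT8, ZT16 replicate 1 or any replicate of ZT20. At ZT12 it missed it without normal chow ZT12 replicate 5 or high-fat ZT12 replicate 2 or 4, with adjusted p of 0.0554 to 0.129.

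**Figure D3:**
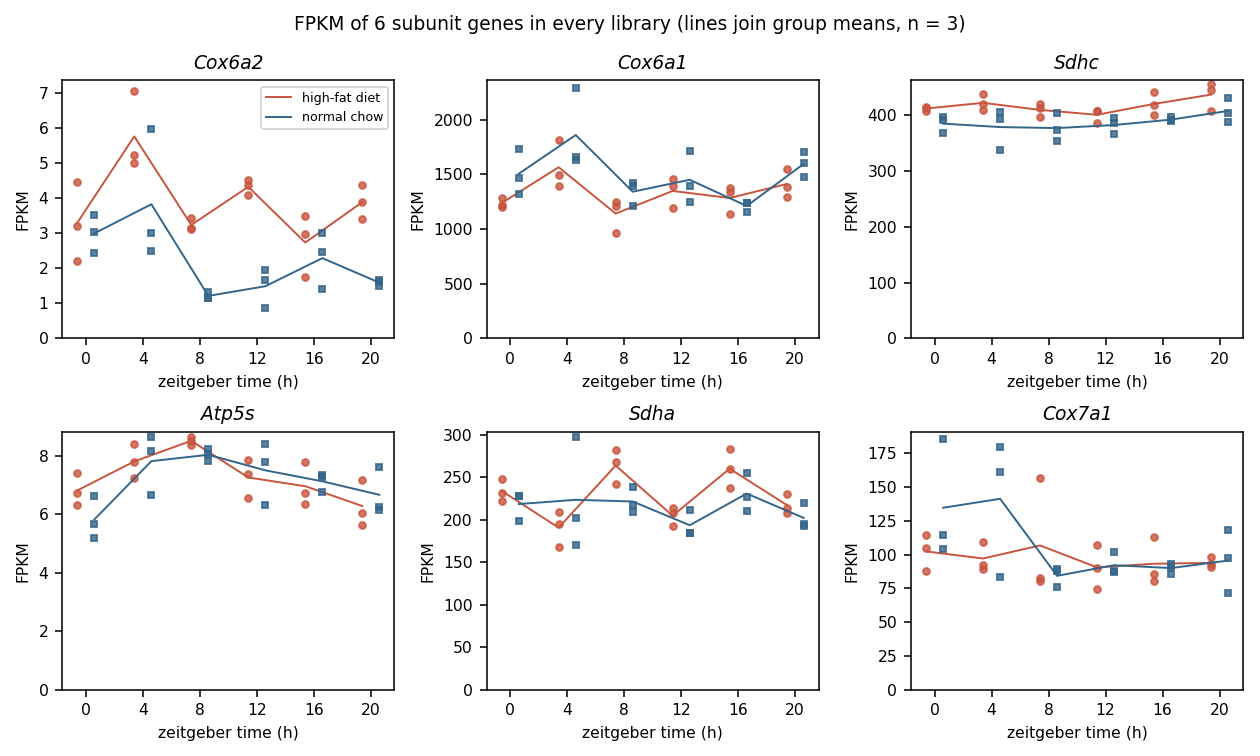
FPKM of 6 subunit genes in all 36 libraries against zeitgeber time, circles for the high-fat diet and squares for normal chow, with lines through the means of 3 libraries. Cox6a2 is apart between the diets at ZT8, ZT12 and ZT20, Atp5s is highest around ZT8, Sdha zigzags in the high-fat libraries, and Cox7a1 has 4 libraries above 150 FPKM.

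Differences called in the other complexes had intervals within 0.32 log2. In complex II Sdhc, a membrane anchor that carries the ubiquinone site, rose to 417 ± 17.99 FPKM under the high-fat diet against 388 ± 21.3 FPKM under normal chow (0.11 ± 0.03, adjusted p = 0.00664 by limma, n = 18 each). Its range was 386 to 457 FPKM in high-fat libraries and 337 to 432 FPKM in normal chow libraries, and its difference was above 0 at each of the 6 times. The catalytic flavoprotein Sdha had 229 ± 31.4 FPKM under the high-fat diet and 215 ± 29.4 FPKM under normal chow (0.09 ± 0.05, adjusted p = 0.273). Sdhb differed by -0.04 ± 0.05 (adjusted p = 0.656).

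In complex I, accessory subunits were called in both directions. Ndufc1 fell to 435 ± 33.7 FPKM under the high-fat diet against 479 ± 36.9 FPKM under normal chow (-0.14 ± 0.04, adjusted p = 0.00859 by limma, n = 18 each), and was below 0 at each of the 6 times. Ndufb6 rose to 407 ± 27.4 FPKM under the high-fat diet against 380 ± 27.4 FPKM under normal chow (0.10 ± 0.03, adjusted p = 0.0347). Ndufa12 at -0.12 ± 0.04 and Ndufa6 at -0.12 ± 0.04, also accessory subunits, missed the threshold by little (adjusted p = 0.05001 and 0.0529). Ndufv1, which binds NADH, differed by 0.07 ± 0.04 (adjusted p = 0.212).

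Complexes III and V had no member past the threshold. At an unadjusted limma p under 0.05 each had 1, which were Uqcrq, a small subunit of complex III (-0.12 ± 0.06, adjusted p = 0.148), and Atp5g3 (-0.08 ± 0.03, adjusted p = 0.109). Uqcrc1 and Uqcrc2, the core proteins, differed by 0.02 ± 0.05 and 0.05 ± 0.03 (adjusted p = 0.838 and 0.323). The catalytic Atp5b differed by -0.05 ± 0.03 and Atp5k by 0.04 ± 0.05 (adjusted p = 0.283 and 0.628).

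The calls depended unequally on single libraries. Ndufc1 and Sdhc passed without any 1 of the 36 libraries, with adjusted p up to 0.0172 and 0.0130. Cox5b missed the threshold (adjusted p 0.0506 to 0.0597) without normal chow ZT0 replicate 1, ZT12 replicate 3 or ZT20 replicate 3, or without high-fat ZT0 replicate 3, ZT4 replicate 4, ZT8 replicate 1, ZT12 replicate 2 or ZT16 replicate 1. Ndufb6 missed it (0.05001 to 0.0625) without high-fat ZT0 replicate 4, ZT4 replicate 4, ZT8 replicates 2 and 5, ZT12 replicate 5, ZT16 replicates 3 and 4 or ZT20 replicates 3 and 4, or normal chow ZT0 replicate 1, ZT8 replicate 4, ZT12 replicate 5, ZT16 replicate 5 or ZT20 replicate 3, each left out alone. Cox6a1 missed it (0.0525 to 0.0873) in 22 of 36 cases, without high-fat ZT0 replicate 1, 3 or 4, ZT4 replicate 3 or 4, ZT8 replicate 1, ZT12 replicate 2 or 4, ZT16 replicate 1 or ZT20 replicate 1 or 3, or normal chow ZT0 replicate 1 or 5, ZT4 replicate 2, ZT8 replicate 4 or 5, ZT12 replicate 3 or 5, ZT16 replicate 1 or 5 or ZT20 replicate 3 or 5. The count of lower members was 7 without normal chow ZT4 replicate 4 (where 15.7% of all genes were lower), 5 without normal chow ZT0 replicate 4 or ZT12 replicate 2 or high-fat ZT4 replicate 5 or ZT16 replicate 3, and 1 without normal chow ZT12 replicate 3 or high-fat ZT0 replicate 3, ZT4 replicate 4, ZT8 replicate 1, ZT12 replicate 2 or ZT16 replicate 1. Without the 4 libraries with adrenal transcripts 3 were higher and 4 lower, against 640 higher and 1674 lower of all 11144 genes. With the adipocyte score as a covariate only Cox6a2 was called, and the share of all genes called was 6.97%. The log2 differences of the other 5 in that fit were -0.14 for Ndufc1, -0.15 for Cox6a1, -0.16 for Cox5b, 0.09 for Sdhc and 0.08 for Ndufb6, against -0.14, -0.16, -0.22, 0.11 and 0.10 without the covariate (adjusted p 0.101 to 0.382 with it). With median ratio or upper quartile rescaling no member was lower, against 3 and 4 higher. In those 2 fits 7.49% and 7.5% of all genes were lower, and 7.5% and 7.54% were higher. With GC correction 5 members were lower and 3 higher, while 1470 of all 11144 genes were lower and 756 higher.

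At single times the diets differed in 0 members at ZT0, ZT4, ZT16 and ZT20 and in 1, Cox6a2, at ZT8 and at ZT12 (limma, adjusted within each time). The shares of all genes called were 1.59% at ZT0, 1.61% at ZT4, 0.332% at ZT8, 0.368% at ZT12, 0.556% at ZT16 and 0.26% at ZT20. At an unadjusted p under 0.05 the members numbered 4, 3, 3, 2, 1 and 1 in that order, against 14.1%, 17.3%, 9.57%, 7.12%, 7.32% and 6.45% of all genes. The members' median difference was -0.09 at ZT0, where 65 of 81 were below 0, and 0.03 at ZT16, where 59 were above 0, against medians of all genes of -0.05 at ZT0 and 0.00 at ZT16. Between these it was 0.00, -0.01 and -0.02 at ZT4, ZT8 and ZT12, and it was -0.01 at ZT20. At ZT4 the normal chow libraries lay far apart: without replicate 2 of that group 11 members (13.6%) were called, against 16.2% of all genes in the same fit. Of the 11, 5 were higher and 6 lower, against 2.95% higher and 13.2% lower of all genes.

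Daily rhythm was weak in the subunits. In a cosine fit with a period of 24 h, 1 member passed under the high-fat diet, Atp5s, against 7.3% of all genes, and 0 passed under normal chow, against 7.77% (limma F test, adjusted over all genes, 18 libraries each). At an unadjusted p under 0.05 there were 5 members under the high-fat diet and 8 under normal chow, against 20.8% and 22.8% of all genes. The median peak-to-trough difference of the members was 0.11 log2 under the high-fat diet and 0.15 log2 under normal chow, against 0.19 and 0.23 log2 for all genes.

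The rhythms of the members did not differ between the diets past the threshold. The test of that difference called 0 members, against 0.0269% of all genes, and 0 at an unadjusted limma p under 0.05, against 3.17%. The fitted peaks of the members, most of them not rhythmic by the test, lay together around lights on: 58 (71.6%) under the high-fat diet and 61 (75.3%) under normal chow were between 20 and 2 h, against 26.2% and 32.7% of all genes. The members share libraries and depth, so their peaks are not independent. The window of 20 to 2 h was not among the planned comparisons. From 20 to 24 h alone there were 49 members under the high-fat diet and 46 under normal chow, against 2003 and 2073 of all 11144 genes. Peaks of the ribosomal protein lists were not counted in this way.

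Atp5s encodes factor B, which links the membrane and catalytic parts of ATP synthase in mammals. In the high-fat libraries its means were 6.81, 7.80, 8.51, 7.26, 6.96 and 6.28 FPKM at ZT0, 4, 8, 12, 16 and 20 (n = 3 each), with a fitted peak at 7.55 ± 0.906 h and a peak-to-trough difference of 0.36 ± 0.09 log2 (SE; limma adjusted p = 0.0333). Normal chow means were 5.82, 7.81, 8.03, 7.5, 7.12 and 6.66 FPKM, with a peak at 9.42 ± 1.22 h and a difference of 0.35 ± 0.11 log2 (adjusted p = 0.129). Its 3 values at ZT8 were 8.36 to 8.65 FPKM under the high-fat diet and 7.83 to 8.22 FPKM under normal chow. Both diets thus had their highest mean at ZT8, and the difference in rhythm had an adjusted p of 1.00. The call under the high-fat diet was lost (adjusted p 0.0502 to 0.0803) without high-fat ZT0 replicate 4, ZT4 replicate 3, ZT8 replicate 1, 2 or 5, ZT12 replicate 2, ZT16 replicate 4 or ZT20 replicate 1 or 4.

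Members nearest to the threshold had other peak times. Uqcrb, a small subunit of complex III, peaked at 22.4 h under the high-fat diet, with a difference of 0.20 log2 (limma adjusted p = 0.0729). Under normal chow Ndufs5, an accessory subunit of complex I, peaked at 23.3 h with 0.30 log2 (adjusted p = 0.133), and Uqcrq at 0.961 h with 0.34 log2 (adjusted p = 0.157). Cox4i2 and Cox7a1 had the wider fitted differences of 0.90 and 0.62 log2 under normal chow (adjusted p = 0.150 and 0.164), with peaks at 4.60 and 1.52 h, near the ZT0 and ZT4 libraries with adrenal transcripts. Without the 4 libraries with adrenal transcripts the values were 0.87 and 0.20 log2 (adjusted p = 0.258 and 0.532).

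The complexes did not move as one from library to library. For each library the mean deviation of a complex's members from their 36-library means was taken on the log2 scale. Its SD over 36 libraries was 0.14 for complex IV, 0.11 for complex I, 0.09 for complex III, 0.07 for complex V and 0.06 for complex II. The means of complexes I and IV lay on the same side of 0 in 31 of 36 libraries, those of III and V in 33, and those of I and III in 30. Mitochondrial ribosomal protein genes shared the side of complex I in 30, of III in 28, of IV in 27 and of V in 29. Such agreement was thus not particular to the complexes. Complex II, a mean of only 4 genes, was on the same side as complex I in 17, as IV in 18, as V in 22 and as III in 23. Complex II shared its side with the citric acid cycle list, which also holds related enzymes, in 31 of 36, and complex I did in 14. The succinate dehydrogenase of complex II belongs to that cycle too. These counts describe libraries that differ in depth and GC slope, and no test was made of them.

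**Figure D4:**
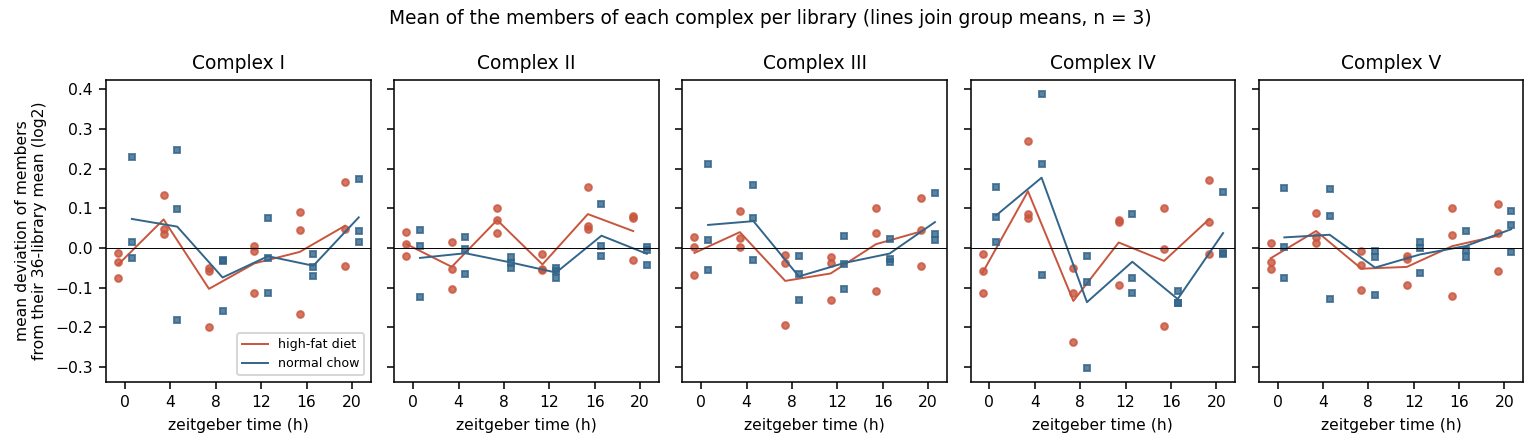
Mean log2 deviation of each complex's members from their 36-library mean in every library, by zeitgeber time, with circles for the high-fat diet, squares for normal chow and lines through the means of 3 libraries. Complexes I and III to V are low at ZT8 and complex II of high-fat libraries is high at ZT8 and ZT16, while libraries of a group are often as far apart as the groups are.

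By group, complex I had a mean deviation of -0.10 at ZT8 under the high-fat diet and -0.07 under normal chow, and complex IV of -0.13 and -0.14. At ZT4 complex IV was at 0.14 under the high-fat diet and 0.18 under normal chow. High-fat means of complex II were 0.01, -0.05, 0.07, -0.04, 0.09 and 0.04 at ZT0, 4, 8, 12, 16 and 20, against -0.02, -0.01, -0.04, -0.06, 0.03 and -0.01 under normal chow. The lowest and highest libraries of complex I were high-fat ZT8 replicate 1 at -0.20 and normal chow ZT4 replicate 2 at 0.25, which had GC slopes of -0.27 and 0.45.

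The GC slope of the library moved with these means. It had the same sign as the mean of complex I in 30 of 36 libraries and as that of complex II in 13. Of the 81 members 66 had higher values in libraries with a higher GC slope and 15 had lower ones. The first had a median transcript GC content of 53.7%, the second of 49.3%. Their transcripts differed in length too, with medians of 637 and 1000 bases, so GC content and length go together here. Ndufs1, the large iron-sulfur core subunit of complex I, had a slope of -1.13 log2 per unit of GC slope, Sdha of -1.05 and Atp5f1, the b subunit of the stator stalk of ATP synthase, of -0.69. After GC correction the SD over libraries was 0.12 for complex IV, 0.09 for complex I and 0.07 for complex II. The part of GC content in the differences between complexes was not tested beyond that, and the part of transcript length was not tested.

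**Figure D5:**
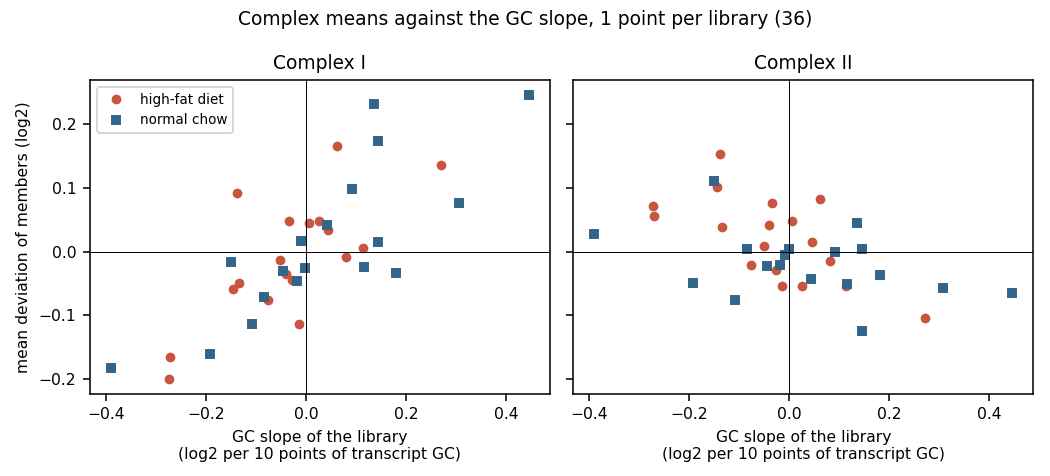
Mean log2 deviation of the members of complex I and complex II against the GC slope of the library, 1 point for each of 36 libraries, circles for the high-fat diet and squares for normal chow. Complex I has the sign of the GC slope in 30 libraries and complex II in 13.

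Sdha showed this pattern over the day. It had means of 234, 191, 264, 205, 260 and 218 FPKM at ZT0, 4, 8, 12, 16 and 20 in high-fat libraries, and 219, 224, 222, 194, 231 and 202 FPKM in normal chow libraries. The high-fat values went up and down between consecutive times, and the 3 libraries of ZT8 (242, 268 and 282 FPKM) lay above the 3 of ZT4 (168, 195 and 209 FPKM). The GC slopes of the high-fat groups were -0.06, 0.11, -0.18, 0.06, -0.13 and 0.00 in the same order of times, opposite in direction to Sdha. With time as a factor in place of the cosine, 10 members passed under the high-fat diet (Atp5a1, Atp5f1, Atp5g2, Atp5s, Cox6a2, Ndufa11, Ndufs1, Ndufv3, Sdha and Uqcrc2), against 28.4% of all genes. Sdha had an adjusted p of 0.00694 in that limma test, and Ndufs1 of the same diet followed it with means of 81.6, 65.2, 89.4, 72.1, 88.2 and 70.2 FPKM.

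Cox7a1 was highest in the 4 libraries with the most of the brown fat transcript Ucp1. It had a lowest, median and highest value of 74.2, 91.6 and 157 FPKM in high-fat libraries and of 71.2, 92.2 and 185 FPKM in normal chow libraries (log2 difference -0.09 ± 0.10, limma adjusted p = 0.579). The 4 highest libraries were high-fat ZT8 replicate 5 at 157 FPKM and normal chow ZT0 replicate 5 at 185, ZT4 replicate 2 at 179 and ZT4 replicate 3 at 161 FPKM. Ucp1, the uncoupling protein that marks brown fat, stood at 73.9 FPKM in that high-fat library and at 76.3, 46.9 and 47.4 FPKM in the normal chow libraries, its 4 highest values. Those 3 normal chow libraries also held adrenal transcripts. The next highest Cox7a1 value was 118 FPKM in normal chow ZT20 replicate 5, where Ucp1 had 4.73 FPKM. Below these the 2 did not go together: normal chow ZT12 replicate 2 had Ucp1 at 34.5 and Cox7a1 at 102 FPKM. Normal chow ZT0 replicate 1 had Ucp1 at 0.0507 and Cox7a1 at 114 FPKM. The 8 brown adipocyte markers summed to 8.58 to 264 FPKM under the high-fat diet and to 7.90 to 416 FPKM under normal chow, and 1 of the 4 that could be tested was lower under the high-fat diet. Their part in the level of Cox7a1 was not tested.

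Ndufa4l2 and Cox4i2 had wide ranges too. Ndufa4l2 ran from 4.60 to 9.06 FPKM with a median of 6.89 under the high-fat diet and from 4.33 to 17.9 FPKM with a median of 6.47 under normal chow, the highest being ZT0 replicate 5, which had the most adrenal transcripts. Its log2 difference was -0.18 ± 0.12 with all libraries and -0.03 without the 4 libraries with adrenal transcripts (limma adjusted p = 0.339 and 0.871). Cox4i2 ran from 0.459 to 1.92 FPKM in high-fat libraries and from 0.224 to 2.56 FPKM under normal chow, with differences of -0.22 ± 0.14 and, without those libraries, -0.07 (adjusted p = 0.295 and 0.743).

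Few genes that assemble the complexes were called between the diets. In lists of assembly factors, the 15 tested genes of complex I, 4 of complex II, 6 of complex III and 5 of complex V had 0 past the threshold (limma, with 2, 0, 1 and 0 at an unadjusted p under 0.05). Of all genes tested 16.6% passed and 30% had an unadjusted p under 0.05. At such shares lists as short as these can hold 0 calls. The complex I list included the subunit Ndufab1. That of complex V included its inhibitor Atpif1 and the subunit Usmg5. Of 23 for complex IV 1 was lower and 0 were higher (4.35% called, against 16.6% of all genes), with a median log2 difference of -0.02. The lower one was Cox20, a chaperone of the mitochondrial subunit 2, which fell to 169 ± 11.8 FPKM under the high-fat diet against 198 ± 15.7 FPKM under normal chow (-0.23 ± 0.04, adjusted p = 2.33e-05). Under normal chow 3 of these 23 were rhythmic, Cox14, Coa6 and Cmc1 (adjusted p = 0.0492, 0.0363 and 0.0305), which is 13.0% against 7.77% of all genes, and 0 under the high-fat diet (4 at an unadjusted p under 0.05), a difference between the diets that was not called for any of them.

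Of 24 electron carriers and partners of nucleotide exchange 1 was higher and 2 were lower, with a median of -0.01, which is 12.5% called against 16.6% of all genes. At an unadjusted limma p under 0.05 there were 9 (37.5%), against 30% of all genes. Vdac1, the main channel of the outer membrane, rose to 485 ± 28.5 FPKM under the high-fat diet against 442 ± 31.1 FPKM under normal chow (0.13 ± 0.02, adjusted p = 2.66e-05 by limma). Slc25a3, which carries phosphate for ATP synthesis, fell by 0.09 ± 0.02 (adjusted p = 0.0161 by limma) and Coq9, needed to make ubiquinone, by 0.11 ± 0.03 (adjusted p = 0.0242). Adck3, Vdac1 and Higd1a were rhythmic under each diet (12.5% of the list, against 7.3% of all genes under the high-fat diet and 7.77% under normal chow). Adck3, a kinase-like protein of ubiquinone synthesis, peaked at 0.980 h under the high-fat diet and 1.98 h under normal chow.

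Of 15 regulators of mitochondrial biogenesis 2 were lower and 0 higher (13.3% called, against 16.6% of all genes), with a median of 0.02. Nrf1, a transcription factor of respiratory chain genes, fell to 3.29 ± 0.382 FPKM under the high-fat diet against 3.84 ± 0.450 FPKM under normal chow (-0.19 ± 0.05, adjusted p = 0.00364 by limma). Esrra, a nuclear receptor of mitochondrial genes, fell by 0.09 ± 0.03 (adjusted p = 0.0407). The list of 24 citric acid cycle genes also held related ones. These were cytosolic forms (Aco1, Idh1 and Mdh1), malic enzymes (Me2 and Me3), Pcx and pyruvate dehydrogenase genes. In the list 5 were higher (Aco1, Fh1, Mdh1, Pcx and Suclg2) and 3 lower (Cs, Idh1 and Me2), and the median was 0.04. That is 33.3% called against 16.6% of all genes, and 12 of the 24 had an unadjusted limma p under 0.05, against 30% of all genes. Of the called genes only Cs, Fh1 and Suclg2 encode enzymes of the mitochondrial cycle, so 33.3% is not a share of the cycle itself. In this list pyruvate carboxylase Pcx rose to 233 ± 15.5 FPKM under the high-fat diet against 191 ± 13.0 FPKM under normal chow (0.29 ± 0.04, adjusted p = 2.12e-06 by limma). Of 76 mitochondrial ribosomal protein genes 12 (15.8%) were lower and 0 higher, and of 82 cytosolic ones 7 (8.54%) and 0, against 11.4% lower and 5.25% higher of all genes. Both lists had a median of -0.05, against -0.03 for all genes.

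Promoters were examined for letters that known regulators of these genes bind. The windows of both members of complex IV that fell, and of the rhythmic Atp5s, are shown as examples of called members. No result above rests on them. RefSeq windows from 250 bases before to 50 after the start were found for 67 of 81 members, but not for the called Cox6a2 and Sdhc. Capitals mark an NRF1 word or a CCAAT box, printed 5′ to 3′ on the gene's strand of GRCm38.p6; Cox6a1 is at chr5:115348909-115349208 on the minus strand, Cox5b at chr1:36691237-36691536 and Atp5s at chr12:69724695-69724994, both on the plus strand.
Cox6a1: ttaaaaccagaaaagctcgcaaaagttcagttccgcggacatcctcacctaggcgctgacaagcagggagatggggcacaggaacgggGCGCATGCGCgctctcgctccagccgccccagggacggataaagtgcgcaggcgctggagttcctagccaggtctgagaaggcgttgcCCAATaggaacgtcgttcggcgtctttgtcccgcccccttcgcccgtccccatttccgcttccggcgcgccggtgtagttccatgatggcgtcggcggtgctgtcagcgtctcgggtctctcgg
Cox5b: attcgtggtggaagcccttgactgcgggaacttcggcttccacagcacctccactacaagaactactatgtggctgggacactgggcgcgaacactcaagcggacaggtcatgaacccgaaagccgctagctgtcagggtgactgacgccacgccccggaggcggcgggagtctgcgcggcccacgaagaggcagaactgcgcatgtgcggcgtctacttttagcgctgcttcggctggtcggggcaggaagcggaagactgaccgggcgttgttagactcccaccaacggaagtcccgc
Atp5s: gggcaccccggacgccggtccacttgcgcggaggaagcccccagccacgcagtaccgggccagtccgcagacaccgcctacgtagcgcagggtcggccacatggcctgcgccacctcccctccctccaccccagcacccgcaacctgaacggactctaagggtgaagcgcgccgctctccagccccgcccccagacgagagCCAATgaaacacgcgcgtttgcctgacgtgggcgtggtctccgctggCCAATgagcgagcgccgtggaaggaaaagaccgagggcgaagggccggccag

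Both strands were searched, and no motif's letters lie inside another's. The NRF1 word, the longer run of capitals in the Cox6a1 window, was in 5 of the 67 (7.46%): Atp5g2, Atp5k, Cox6a1, Ndufa11 and Uqcrc1. It was in 1.07% of the 27025 genes with a window and in 2.31% of the 8511 tested genes with one. The GABPA word CCGGAAGT was in 7.46% of member windows, 4.31% of all and 9.41% of tested ones. The ESRRA word TCAAGGTCA was in 2, Atp5g3 and Sdhd (2.99%, against 0.466% of all and 0.341% of tested windows). The E-box CACGTG, which clock factors bind, was in 7 (10.4%, against 8.09% and 12.1%), and the CCAAT box in 30 (44.8%, against 41.1% and 42.2%). Of the 5 genes with the NRF1 word 1, Cox6a1, was called between the diets, against 16.6% of all genes tested. That call was lost in 22 of the 36 fits without 1 library, and its relation to the word was not tested. Counts of letters describe these windows and say nothing of binding.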

How the data were processed

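The deposited values are FPKM, made by the authors and held in a table of 24883 rows for each diet. The tools were CASAVA 1.8.2, Bowtie and Cuffnorm on build mm10, per the submitters' processing notes. Other versions are not given in the sources consulted, nor do those state whether both tables came from 1 run, so runs and diets cannot be told apart. TRIzol RNA and a TruSeq kit were used, per the labels' protocols. Times were taken from the titles, since the label of the diet reads ZT3 throughout. Total reads are unknown. Relative depth came from 1324 rarely detected genes, where 96.2% of low values were whole multiples of the smallest step to within 0.1.

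Repeated symbols (817 rows, 280 symbols) were left out. The 11144 genes averaging 1 FPKM or more over 36 libraries were tested as log2(FPKM + 0.5), which understates changes of low genes, using limma 3.58.1 (R 4.3.3) with its trend option; p-values were adjusted by Benjamini-Hochberg over all of them. Level used 12 group means, rhythm a cosine and a sine of 24 h within a diet, and the difference in rhythm their interaction with diet. P-values of level measure the spread between the 3 libraries of a group, taken here as separate animals because the design gives 3 per time. In the cosine fits the spread also takes in departures of group means from the curve, such as an up and down between consecutive times. No pair of libraries held identical values. The fits were tested on simulated data. Positions are those of GENCODE M21 on GRCm38.

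Members and lists were chosen with earlier results of these data known. Named members were all called ones, up to 2 per complex, direction and test by p, the highest and lowest of each complex, paralog pairs and those next to the FPKM limit; some were named after their values were seen. In lists, up to 4 genes by p were named. Alternatives were other pseudocounts, filters, rescalings, GC correction, a replicate block, covariates, weights, time as a factor and leaving out libraries.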

Additional observations from a re-analysis of the deposited data

How the results depend on the processing

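The median log2 difference of the members (-0.02) stayed within the spread between libraries under all 14 alternatives. It ranged from -0.04 to -0.01 over the 36 fits that left out 1 library. Its sign depends on the scaling, since rescaling a library moves nearly all genes alike. The median of all genes went from -0.031 to -0.0018 with median ratio and 0.0004 with upper quartile rescaling. Against 3 lower members, there were 1 with no filter on low values, 5 with a filter of 5 FPKM, 0 after rescaling by median ratios and 0 by upper quartiles, 5 after GC correction and 0 with the adipocyte score as covariate, which also left 1 higher. Of all genes 1265 of 11144 were lower in the main fit. In the same order of alternatives they were 1390 of 19103, 911 of 6900, and 835, 836, 1470 and 505 of 11144. At ZT8 the 1 call became 0 with a pseudocount of 1, no filter, the higher filter of 5 FPKM (where Cox6a2 is not tested), rescaling by median ratios, the adipocyte score, the replicate block, and GC correction with the replicate block, and 2 with array weights. Of all 11144 genes array weights called 263 higher and 285 lower at ZT8. At ZT12 the 1 call became 0 with the filter of 5 FPKM and with the adipocyte score, and 15 with array weights, which called 2141 genes higher and 1867 lower there. At ZT16 array weights gave 4, against 389 higher and 402 lower of all 11144 genes. At ZT20 GC correction, GC correction with the replicate block, array weights and leaving out the 4 libraries with adrenal transcripts gave 1 each. At ZT4 leaving out those libraries gave 35 (28 higher and 7 lower), against 9.91% of all genes higher and 34.4% lower in that fit, where normal chow ZT4 held replicate 4 alone, assumed to vary like the other groups. Under normal chow GC correction, with or without the replicate block, gave 1 rhythmic member, Ndufs5. Of all 11144 genes 1408 were rhythmic in that fit without the block and 1042 with it. Under the high-fat diet there were 0 with the replicate block, 10 with time as a factor and 2 with an alternating term, which was chosen after seeing the data. In the same order 446, 3166 and 1307 of all 11144 genes passed. Where not stated, the cause was not tested.

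Leaving out 1 library gave 2 to 4 higher and 1 to 7 lower members; 0 to 11 calls at ZT4 (11 without normal chow ZT4 replicate 2), 0 to 1 at ZT8 and ZT12, 0 to 1 at ZT20 (1 without normal chow ZT4 replicate 2 or 4), 0 to 1 rhythmic under normal chow (1 without ZT4 replicate 4) and 0 to 1 under the high-fat diet. All other such counts were 0. Replicate numbers in the titles did not clearly pair the libraries: deviations of same-numbered libraries of other groups had a median correlation of 0.0384, with 39 of 119 above 0.1, against -0.00402 and 139 of 475 for libraries with other numbers. For the 12 pairs of the same number and time under the other diet the median correlation was 0.0982, with 6 above 0.1. So few pairs cannot settle whether the numbers pair the libraries. With the replicate block 3 members were higher and 2 lower, against 531 higher and 1163 lower of all 11144 genes. Low genes are limited by depth: Cox4i2 and Cox6a2 rest on few reads in the shallow libraries.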
